A study of Mus musculus with 9 samples.

Results

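The comparison set all 6 libraries from doxorubicin-injected mice against the 3 sham libraries, 9 of the 9 libraries of the study, and asked what doxorubicin did in the hippocampus whether or not MitoQ was also given. All libraries held polyadenylated RNA of postmortem hippocampus. The mice were young and of the inbred strain C57BL6/J. Sham mice received saline. The injected libraries came from 2 groups, 3 with doxorubicin alone and 3 with doxorubicin plus MitoQ supplementation, and were chosen by the treatment in their titles, not by any measured value. No group with MitoQ and no doxorubicin was analysed here, so an action of MitoQ by itself cannot be told apart from an action on doxorubicin. The labels give no dose, route, time since injection, sex or exact age. They also do not say that each library came from its own mouse, and p-values measure only the spread between these libraries, which may be technical.

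Doxorubicin is an anthracycline used in cancer chemotherapy. It intercalates into DNA and traps topoisomerase II on cut DNA, which in dividing cells activates p53 and its targets, and its redox cycling at mitochondria produces reactive oxygen. The drug crosses the blood-brain barrier poorly. MitoQ is a ubiquinone joined to a lipophilic cation that carries it into mitochondria, where it acts as an antioxidant. The hippocampus is a folded sheet of CA1, CA2, CA3 and dentate gyrus neurons that borders the subiculum, neocortex, meninges and choroid plexus.

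Hippocampal identity was present in all 9 libraries: the summed level of 16 CA1 pyramidal markers ranged from 2280 to 2621 CPM, and that of 20 dentate granule cell markers from 1519 to 1822 CPM. CPM scale the counts to the TMM-adjusted size of a library. The libraries held between 24.7 and 41.2 M (mega) counts, so that 3 counts corresponded to 0.0728 to 0.122 CPM. Choroid plexus RNA varied most and was uneven between the groups. Its 20 markers took 0.032%, 0.749% and 0.0294% of counts in sham, 0.591%, 0.0298% and 0.3% with doxorubicin alone and 0.487%, 0.22% and 0.736% with doxorubicin plus MitoQ. They were near the bottom of this range in 2 of 3 sham and 1 of 6 injected libraries. Doxorubicin replicate 3 stood apart in several genes and lists, and several values are given with and without it.

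No gene passed an adjusted p of 0.05 among 15296 tested, a background of 0%, by edgeR's quasi-likelihood test with Benjamini-Hochberg adjustment. At an unadjusted p under 0.05 there were 979 genes (6.4%), with 447 higher (2.92%) and 532 lower (3.48%). At an adjusted p under 0.1 there were 2 (0.0131%). The smallest adjusted p was 0.0571 (edgeR), that of the complexin gene Cplx3. The median log2 fold change over all tested genes was 0.00, near which TMM scaling centres it, and the median standard error (SE) was 0.09. In 491 genes (3.21%) the 6 injected libraries did not overlap the 3 sham libraries. Of these, 178 were higher (1.16%) and 313 lower (2.05%). The lower ones differed by more: their median log2 fold change was -0.24, against 0.15 for the higher ones, and 69 of them lay at least 1.5-fold below sham, against 12 above. They were also the less abundant, at a median of 16.1 CPM against 41.7 CPM for the higher ones and 21.5 CPM for all tested genes. A random order of the libraries also leaves some genes without overlap. That share was not computed, so the counts of such genes are no result by themselves. The number of calls depended on the test: DESeq2 called 36 genes, 6 higher and 30 lower, and in 31 of them the libraries did not overlap.

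**Figure D1:**
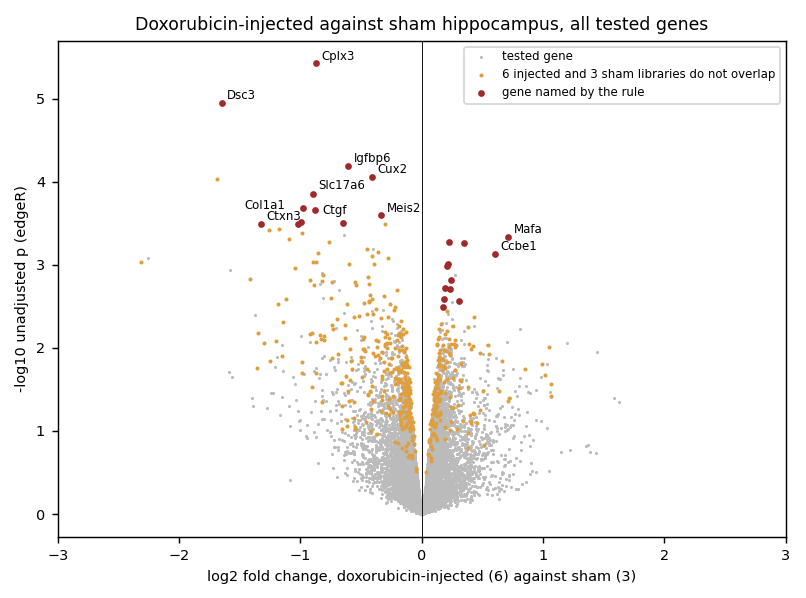
Each point is 1 of the 15296 tested genes, with the log2 fold change of the 6 doxorubicin-injected against the 3 sham libraries on the x axis and the -log10 of the unadjusted edgeR p on the y axis. Orange marks the genes whose 6 and 3 libraries did not overlap and dark red the 24 genes picked by the rule on p, and the left arm, of genes lower after injection, reaches further out and higher up than the right.

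The gene with the smallest p was Cplx3, a marker of neocortical neurons. It encodes complexin 3, a protein that binds the SNARE complex at release sites; in mouse neocortex it marks the deepest, subplate-derived layer. On GRCm38 (mm10) it lies on chromosome 9, from 57599992 to 57606281, on the minus strand. Its level was 7.98, 7.21 and 7.40 CPM in sham, 4.23, 4.20 and 3.57 CPM with doxorubicin alone and 4.02, 4.44 and 4.27 CPM with doxorubicin plus MitoQ. Every injected library lay below every sham library, and the highest injected value was 4.44 CPM against a lowest sham value of 7.21 CPM. The rule that picked the 12 leading genes of each direction asked for non-overlap with sham. In those genes, here and below, it is therefore no separate result. The difference was 1.83-fold, a log2 fold change of -0.87 (SE 0.10). Its adjusted p of 0.0571 (edgeR) ranged from 1.36e-06 with DESeq2 to 0.533 over the alternatives, while the log2 fold change stayed between -0.90 and -0.82. The 250 bases before its start in RefSeq, chr9:57606282-57606531 on the minus strand of GRCm38.p6, are shown for that reason. Capitals mark the E-box CACGTG, a palindrome that reads the same on both strands and is bound by basic helix-loop-helix factors.
Cplx3 promoter: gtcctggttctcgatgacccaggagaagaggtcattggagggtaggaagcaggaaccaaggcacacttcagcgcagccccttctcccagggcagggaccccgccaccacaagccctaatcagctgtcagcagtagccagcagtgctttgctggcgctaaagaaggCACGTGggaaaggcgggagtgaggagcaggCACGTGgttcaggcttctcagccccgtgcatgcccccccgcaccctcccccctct
The window held 2 copies of CACGTG, which 6.02% of 32851 mouse promoters of the same length hold at least once. It held 1 copy of CCAAT on either strand (33.8% of promoters), and 0 of GGGCGG (32.7%) and TATAAA (12.4%). A match is a description of the letters and shows no binding.

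Other neuronal markers lay below sham with Cplx3, of the neocortex (Ctgf, Cux2) and of the thalamus and subiculum (Slc17a6) or thalamus (Necab1). Ctgf, the matricellular connective tissue growth factor and a second marker of the deepest cortical layer, was at 14.4, 15.5 and 13.2 CPM in sham. It was at 10.7, 7.02 and 9.91 CPM with doxorubicin alone and at 5.12, 8.38 and 6.30 CPM with MitoQ, a log2 fold change of -0.88 (SE 0.16; edgeR adjusted p = 0.355). Here the MitoQ libraries were the lowest, and no injected library reached the sham range. Cux2, a homeodomain factor of upper-layer neurons (chromosome 5, 121856366 to 122050102, minus strand), was at 38.3, 39.4 and 36.9 CPM in sham, 29.7, 27.6 and 25.5 CPM with doxorubicin and 29.5, 27.9 and 32.4 CPM with MitoQ. That is 1.33-fold lower (-0.41 on the log2 scale, SE 0.07; edgeR adjusted p = 0.284), again without overlap. Slc17a6 encodes the vesicular glutamate transporter VGLUT2, used by thalamic and subicular projection neurons (chromosome 7, 51622006 to 51671119, plus strand). It was at 22.1, 26.7 and 20.4 CPM in sham, 9.59, 12.5 and 8.09 CPM with doxorubicin and 13.2, 19.0 and 13.4 CPM with MitoQ. The groups did not overlap, and the difference was 1.87-fold (-0.90 on the log2 scale, SE 0.16; edgeR adjusted p = 0.355). Necab1, a neuronal calcium-binding protein, ranged from 55.1 to 82.0 CPM over the injected libraries and from 80.9 to 99.9 CPM in sham (-0.40 on the log2 scale, SE 0.08; edgeR adjusted p = 0.391). MitoQ replicate 2, the highest injected library, lay inside the sham range.

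As a list, 22 neocortical markers had a median log2 fold change of -0.17, against 0.00 over all tested genes. Of them 19 were lower and 3 higher in sign, where 48.2% of all tested genes were lower. At an unadjusted p under 0.05 (edgeR), 9 were lower and 2 higher, where 3.48% of all tested genes were lower and 2.92% higher, and 4 were lower without overlap between the libraries (2.05% of all tested genes). The list was chosen with earlier results of these data known. It includes Cplx3, Ctgf and Cux2, which were picked by p and non-overlap, so these counts are no independent support. The mean level of the list (log2 CPM minus the sham mean) was 0.04, 0.03 and -0.07 in sham, -0.21, -0.27 and -0.46 with doxorubicin alone and -0.35, -0.14 and -0.27 with MitoQ. By this mean level all 6 injected libraries lay below all 3 sham libraries, which was so for 1 of the 50 lists examined. The mean includes Cplx3, Ctgf and Cux2, so its non-overlap is no independent support either. The level without these genes was not computed. The summed level of the list overlapped, at 1362 to 1467 CPM in sham and 1201 to 1412 CPM after injection. The median of the list stayed between -0.23 and -0.14 over 16 alternatives. The 14 tested subicular markers, 13 of them lower, had a median of -0.23, but their list levels overlapped sham, and the median was -0.03 if sham replicate 2 was left out and -0.06 if doxorubicin replicate 3 was. Of 17 thalamic and habenular markers 11 were lower, with a median of -0.10. Leaving out sham replicate 2 gave -0.0021 and leaving out sham replicate 3 gave -0.15. In this list Prkcd, a protein kinase C isoform of thalamic relay neurons, was the other way, at 17.0 to 37.0 CPM after injection and 11.2 to 18.8 CPM in sham (0.81 on the log2 scale, SE 0.24; edgeR adjusted p = 0.712). In bulk tissue, fewer cells of a type and less RNA per cell cannot be told apart, and neither can a different amount of bordering tissue in the dissected piece.

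Genes of the fibroblasts that build the meninges and the walls of larger vessels had the lowest median of the 50 lists. Of 27 markers tested, 25 were lower and 2 higher, with a median log2 fold change of -0.56, or 1.47-fold. At an unadjusted p under 0.05 (edgeR), 16 were lower and 0 higher, and in 8 the injected libraries all lay below sham, where 3.48% and 2.05% of all tested genes did. This list, too, was chosen with earlier results known. It includes Igfbp6 and Col1a1, which were picked by p and non-overlap, so these counts are no independent support. Igfbp6, a secreted binding protein of insulin-like growth factors made by leptomeningeal cells (chromosome 15, 102144362 to 102149511, plus strand), was at 15.4, 14.4 and 13.5 CPM in sham. With doxorubicin it was at 9.05, 8.56 and 8.38 CPM and with MitoQ at 8.92, 11.6 and 10.5 CPM, which was 1.52-fold lower overall (-0.61 on the log2 scale, SE 0.10; edgeR adjusted p = 0.284). Both injected groups stayed clear of the sham range. Col1a1, a chain of type I collagen (chromosome 11, 94936224 to 94953042, plus strand), was at 11.9, 8.86 and 9.92 CPM in sham, 5.44, 4.28 and 3.79 CPM with doxorubicin and 6.44, 7.18 and 4.11 CPM with MitoQ. This was 1.98-fold lower (-0.98 on the log2 scale, SE 0.18; edgeR adjusted p = 0.355), with a gap between the lowest sham and the highest injected library. Fmod, the collagen-binding proteoglycan fibromodulin, was at 13.3, 15.6 and 13 CPM in sham, 5.98, 3.69 and 6.45 CPM with doxorubicin and 5.50, 10.6 and 5.09 CPM with MitoQ (-1.18 on the log2 scale, SE 0.23; edgeR adjusted p = 0.358). MitoQ replicate 2 was the nearest to sham in Fmod, Col1a1 and Igfbp6.

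The mean level of the fibroblast and meninges list was 0.10, 0.13 and -0.23 in sham, -0.64, -1.17 and -0.59 with doxorubicin and -0.37, -0.08 and -0.65 with MitoQ. MitoQ replicate 2, at -0.08, was inside the sham range, and the other 5 injected libraries were below it. The summed level of the list, which its most abundant members set, overlapped in part: 431 to 753 CPM in sham and 291 to 602 CPM after injection. The median of the list was -0.58 with the choroid plexus level as a covariate, and it lay between -0.67 and -0.44 over 16 alternatives. Among 39 collagens and other matrix genes, which share members with this list, the difference was smaller, with 22 lower, 17 higher and a median of -0.04, which was -0.13 without doxorubicin replicate 1 and -0.01 without doxorubicin replicate 2 or 3. Col3a1, the chain of type III collagen, was lower there (0.874 to 2.56 CPM against 3.19 to 4.85 CPM in sham; -1.12 on the log2 scale, SE 0.28; edgeR adjusted p = 0.59).

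Of the 12 lower genes picked by p, Dsc3 had the largest fold change. It encodes the desmosomal cadherin desmocollin 3 (chromosome 18, 19960930 to 20002351, minus strand). It was at 2.93, 3.44 and 2.64 CPM in sham, 0.583, 0.753 and 0.474 CPM with doxorubicin alone and 1.26, 2.04 and 1.27 CPM with MitoQ. The doxorubicin libraries were the lowest, the MitoQ libraries lay between them and sham, and no groups overlapped. The difference was 3.13-fold (-1.65 on the log2 scale, SE 0.21; edgeR adjusted p = 0.0859). Ctxn3, a small neuronal membrane protein of the cortexin family, followed the same order, at 1.88 to 2.35 CPM in sham, 0.364 to 0.816 CPM with doxorubicin and 0.942 to 1.73 CPM with MitoQ (-1.32 on the log2 scale, SE 0.25; edgeR adjusted p = 0.355). Meis2, a homeodomain factor, was at 70.7 to 76.9 CPM in sham and 51.6 to 67.6 CPM after injection. The GTPase gene Rnd1, which acts on the actin cytoskeleton, was at 7.88 to 10.4 CPM against 4.26 to 6.96 CPM. Sec14l3, of the SEC14 family of lipid-binding proteins, was at 2.66 ± 0.495 CPM in sham (SD, n = 3) and 1.33 ± 0.226 CPM after injection (SD, n = 6), and the receptor adaptor Grb7 at 1.60 to 2.21 CPM against 0.714 to 1.11 CPM. Their log2 fold changes were -0.33 for Meis2, -0.65 for Rnd1 and -1.02 for Grb7, and all 4 had an edgeR adjusted p of 0.355. Of 9 desmosomal genes tested, 6 were higher and 3 lower in sign. Among the lower was Dsc2, another desmosomal cadherin, at 0.704 to 1.20 CPM in sham and 0.369 to 0.634 CPM after injection. Its log2 fold change was -0.87 (SE 0.27, edgeR adjusted p = 0.712).

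The 12 leading higher genes differed by less. Mafa, a basic leucine zipper factor best known from pancreatic beta cells (chromosome 15, 75745490 to 75748228, minus strand), was at 1.68, 1.68 and 1.36 CPM in sham. It was at 2.25, 2.54 and 2.40 CPM with doxorubicin and 2.73, 2.78 and 2.87 CPM with MitoQ, 1.64-fold above sham (0.71 on the log2 scale, SE 0.14; edgeR adjusted p = 0.358). The MitoQ libraries were the highest. Ccbe1, a secreted protein needed for lymphatic vessel growth, was at 24.8, 19.7 and 24.2 CPM in sham, 33.4, 35.3 and 43.2 CPM with doxorubicin and 37.7, 26.3 and 32.7 CPM with MitoQ (0.60 on the log2 scale, SE 0.13; edgeR adjusted p = 0.399). An exon of Ccbe1 overlaps the gene Gm15958 on the opposite strand, and without a stated strand setting their reads cannot be told apart. In both genes the injected libraries lay above every sham library, which the rule for these genes asked for.

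A further 8 were 1.13-fold (Pkd1) to 1.24-fold (Slit1) above sham. Slit1, an axon guidance ligand of Robo receptors, was at 250 to 304 CPM in sham and 318 to 414 CPM after injection. Col25a1, a transmembrane collagen of neurons, was at 64.7 to 70.4 CPM against 72.5 to 83.4 CPM. Arhgef28, an exchange factor for small GTPases, was at 85.3 to 91.8 CPM against 99.3 to 118 CPM, and Mctp1, a calcium-binding protein with C2 domains, at 54.7 to 59.5 CPM against 61.1 to 73.7 CPM. Clmn, Nhsl2, Dido1 and Pkd1 had log2 fold changes of 0.21, 0.19, 0.18 and 0.18, and adjusted p over the 8 genes ran from 0.408 to 0.636 (edgeR). An exon of Pkd1 overlaps Tsc2 on the opposite strand. In each of the 8 the injected libraries lay above every sham library, again as the rule asked.

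**Figure D2:**
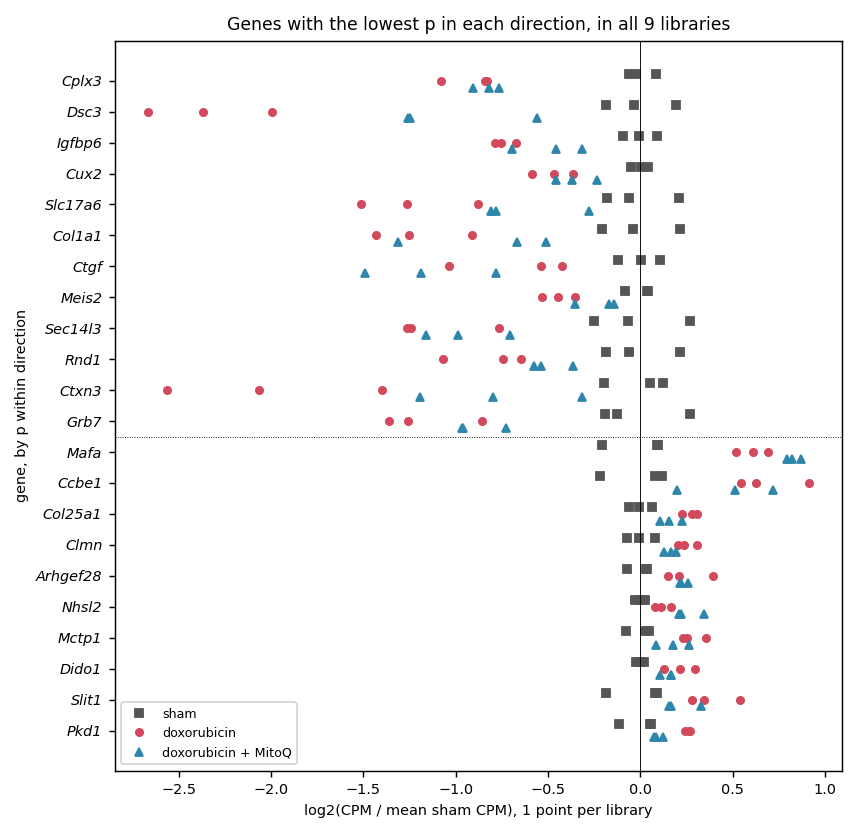
Each point is 1 library, placed by its log2 ratio to the mean sham CPM of that gene, for the 12 lower genes (top) and 10 of the 12 higher genes (bottom) with the smallest p. In no row do the 6 injected libraries overlap the 3 sham libraries, which the rule for these genes asked for; Dsc3 and Ctxn3 spread most between the injected groups.

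Both injected groups were then set side by side against the same sham libraries, which they share, so their values are not independent of each other. With doxorubicin alone against sham, 0 genes were called (edgeR), 1350 had an unadjusted p under 0.05 (8.83%), and 1 an adjusted p under 0.1 (0.00654%), the smallest being 0.0811 (edgeR, Dsc3). With doxorubicin plus MitoQ against sham, 0 genes were called (edgeR), 451 had an unadjusted p under 0.05 (2.95%), and the smallest adjusted p was 0.402 (edgeR, Cplx3). DESeq2 called 44 and 2 genes in these comparisons. Cplx3 had nearly the same log2 fold change in both, -0.91 (SE 0.12) with doxorubicin alone and -0.82 (SE 0.12) with MitoQ. Cux2 was at -0.47 (SE 0.08) and -0.35 (SE 0.08), and Sec14l3 at -1.06 (SE 0.23) and -0.93 (SE 0.22). Dsc3 was at -2.32 (SE 0.28) and -0.98 (SE 0.24), Slc17a6 at -1.20 (SE 0.19) and -0.60 (SE 0.18), and Ctxn3 at -1.93 (SE 0.32) and -0.72 (SE 0.29). Ctgf was the one lower gene of the 12 in which the MitoQ group lay further from sham, at -1.12 (SE 0.19) against -0.64 (SE 0.19). Of the 24 genes, the mean of the MitoQ group lay between the doxorubicin and sham means in 11 of 12 lower and 9 of 12 higher ones. The rule placed both injected groups on the same side of sham in these genes, so only their order was free. The share over all tested genes was not computed, so these counts do not show an action of MitoQ.

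The direct test of doxorubicin plus MitoQ against doxorubicin alone called 0 genes (edgeR), with 505 at an unadjusted p under 0.05 (3.3%) and a smallest adjusted p of 0.265 (edgeR); DESeq2 called 5. Of the 24 genes, 8 had an unadjusted p under 0.05 in it (6 lower, 2 higher), and none passed after adjustment. The largest was Dsc3, with a log2 difference of 1.34 (SE 0.28; unadjusted p = 0.000646, adjusted p = 0.968, edgeR), all 3 MitoQ libraries lying above all 3 doxorubicin libraries. For Ctxn3 it was 1.22 (SE 0.33) and for Slc17a6 0.60 (SE 0.19), also without overlap between the injected groups, and for Ctgf -0.48 (SE 0.19), each with an adjusted p of 0.968 (edgeR). For Cplx3 it was 0.09 (SE 0.12). The gene with the smallest p in this test was Mir6236, chosen after its values were seen; with Rn45s and Lars2 it belongs to the ribosomal RNA-linked genes, whose group means lay below sham with doxorubicin and above it with MitoQ. Rn45s, the ribosomal RNA precursor, was at 1593 to 2167 CPM in sham, 656 to 887 CPM with doxorubicin and 2042 to 11500 CPM with MitoQ. MitoQ replicate 2, at 2042 CPM, was inside the sham range. Selection of polyadenylated RNA removes most ribosomal RNA before sequencing, and how much remained was not measured. Averaged over both injected groups, Rn45s had a log2 fold change of 0.33 (SE 0.39; edgeR adjusted p = 0.921).

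**Figure D3:**
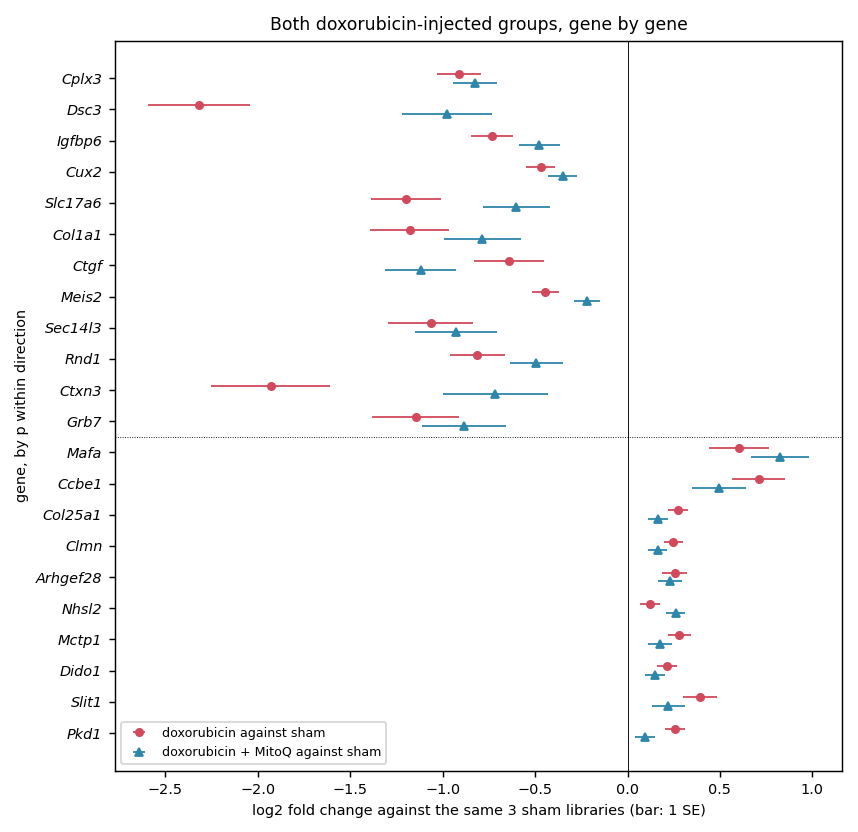
Log2 fold changes of the same genes against sham, with doxorubicin alone (circles) and doxorubicin plus MitoQ (triangles); bars are 1 SE and both comparisons share the 3 sham libraries. Each pair lies on 1 side of 0, as the rule for these genes fixed, and the pairs are furthest apart for Dsc3 (-2.32 and -0.98) and Ctxn3 (-1.93 and -0.72).

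The genes that doxorubicin is known to act on, and the p53 targets, had list medians close to 0. Top2b, the topoisomerase II isoform of neurons, was at 114 to 127 CPM in sham and 119 to 126 CPM after injection (0.00 on the log2 scale, SE 0.04; edgeR adjusted p = 0.999). Its exons overlap Rarb on the opposite strand. Top2a, the isoform of dividing cells, was at 1.52 to 1.82 CPM in sham and 0.328 to 2.42 CPM after injection (-0.37 on the log2 scale, SE 0.42; edgeR adjusted p = 0.919). Its log2 fold change was -0.14 without doxorubicin replicate 3 and -0.85 without doxorubicin replicate 2. Of 32 p53 targets, 13 were higher and 19 lower, with a median log2 fold change of -0.01 (0.06 without sham replicate 2). At an unadjusted p under 0.05 (edgeR), 3 were higher and 0 lower, where 2.92% and 3.48% of all tested genes were. Without overlap, 2 were higher and 0 lower (1.16% and 2.05% of all tested genes). The cell cycle inhibitor Cdkn1a, a main p53 target, was at 7.63, 14.9 and 12.2 CPM in sham, 10.5, 9.99 and 29.1 CPM with doxorubicin and 6.85, 10.7 and 9.41 CPM with MitoQ. Doxorubicin replicate 3 alone lay above the sham range. The log2 fold change was 0.07 (SE 0.34; edgeR adjusted p = 0.983) and -0.27 without that library. Mdm2, which marks p53 for degradation and is induced by it, was at -0.01 (SE 0.08; edgeR adjusted p = 0.993). Small upward differences were seen in Xpc, a sensor of damaged DNA (0.17, SE 0.06), Ddb2, its partner in nucleotide excision repair (0.23, SE 0.10), and the kinase Plk2 (0.13, SE 0.05); all had edgeR adjusted p of 0.712 or more.

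DNA repair and damage signalling genes had 25 of 41 members higher and a median of 0.04 (0.02 without doxorubicin replicate 3); Trp53bp1, which binds double-strand breaks, was at 125 to 133 CPM in sham and 136 to 147 CPM after injection, without overlap (0.12 on the log2 scale, SE 0.04; edgeR adjusted p = 0.712). Of 13 topoisomerase and adduct repair genes 7 were higher and 6 lower (median 0.00), and of 27 apoptosis genes 12 and 15 (median 0.00). Among 16 genes that transport or metabolise doxorubicin, 9 were higher and 7 lower (median 0.01). Abcc1, an efflux transporter of anthracyclines, was at 23.9 to 26.1 CPM in sham and 26.9 to 31.3 CPM after injection, without overlap (0.21 on the log2 scale, SE 0.06; edgeR adjusted p = 0.712). Nos3, the endothelial nitric oxide synthase, was at 11.8 to 13.8 CPM in sham and 6.96 to 12.8 CPM after injection. Its log2 fold change was -0.42 (SE 0.16, edgeR adjusted p = 0.714), with doxorubicin replicate 1 inside the sham range.

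Mitochondrial and antioxidant lists, where MitoQ acts, were close to sham in both injected groups. The 33 antioxidant and Nrf2 target genes had a median of -0.02 against sham with doxorubicin alone and with MitoQ, and Sod2, the mitochondrial superoxide dismutase, was at 163 to 165 CPM in sham and 147 to 167 CPM after injection (-0.04 on the log2 scale, SE 0.04; edgeR adjusted p = 0.918). Hmox1, the inducible heme oxygenase, was at -0.18 (SE 0.13; edgeR adjusted p = 0.864), or -0.08 without sham replicate 3. The 13 genes of coenzyme Q synthesis had a median of -0.01. Respiratory complex I genes were lower in 30 of 36 members and those of complexes II to V in 28 of 37, but by medians of -0.03 and -0.04 only, and 42 of 50 cytosolic ribosomal protein genes were lower with a median of -0.06. In complexes II to V, 3 members were lower without overlap, where 2.05% of all tested genes were. Uqcrh, the hinge subunit of complex III, was among the members of smallest p there. It was at 115 to 132 CPM against 129 to 131 CPM in sham (-0.12 on the log2 scale, SE 0.04, edgeR adjusted p = 0.714). For Uqcrh 5 injected libraries lay below sham and MitoQ replicate 2 above it. Chaperones of the endoplasmic reticulum were lower in 19 of 24 members (median -0.09; -0.16 with doxorubicin alone and -0.01 with MitoQ) and cytosolic heat shock genes in 18 of 20 (median -0.10). The first median ranged from -0.17 (without sham replicate 1) to -0.05 (without sham replicate 3), and the second was -0.02 without sham replicate 2.

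Neuronal markers of the hippocampus proper had medians above 0 for CA3 and CA2, CA1 and dentate granule cells, and a median below 0 for interneurons. Of 18 CA3 and CA2 markers 15 were higher and 3 lower, where 51.8% of all tested genes were higher. Their median was 0.21, which was 0.13 without doxorubicin replicate 3. Their list level was 0.11, -0.05 and -0.06 in sham, 0.13, 0.13 and 0.39 with doxorubicin and 0.25, -0.02 and 0.14 with MitoQ, so 5 of 6 injected libraries lay above every sham library. Cpne4, a calcium-dependent membrane-binding copine, was at 102 to 125 CPM in sham and 109 to 138 CPM after injection (0.21 on the log2 scale, SE 0.08; edgeR adjusted p = 0.712). Rgs14, a regulator of G-protein signalling enriched in CA2, was at 95.9 to 122 CPM against 119 to 165 CPM (0.26, SE 0.10; edgeR adjusted p = 0.714), its highest value in doxorubicin replicate 3, without which it was at 0.19. Coch, an extracellular matrix protein in the same list, was lower (4.28 to 6.59 CPM against 2.50 to 4.46 CPM; -0.68, SE 0.17; edgeR adjusted p = 0.51). Of 16 CA1 markers 10 were higher and 6 lower (median 0.04). But at an unadjusted p under 0.05 (edgeR) 2 were higher and 3 lower, where 2.92% and 3.48% of all tested genes were. The mean level of the CA1 list after injection was -0.02 ± 0.0574 (SD, n = 6), with 3 of the 6 libraries below every sham library, and its median lay between -3.5e-05 and 0.04 when a library was left out. Of 20 dentate granule cell markers 12 were higher (median 0.07, or 0.02 without MitoQ replicate 2 and 0.03 without doxorubicin replicate 3). Of 25 markers of GABAergic interneurons 18 were lower, with a median of -0.02 that lay between -0.07 and -0.0049 when a library was left out.

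Synaptic lists leaned slightly upward in members but not in size: 24 of 30 postsynaptic genes were higher (median 0.05) and 24 of 35 presynaptic ones (median 0.03). Without sham replicate 2 the medians were -0.01 and 0.0029. At an unadjusted p under 0.05 (edgeR), 5 postsynaptic genes were higher and 1 lower, but 2 presynaptic ones were higher and 4 lower. The shares over all tested genes were 2.92% and 3.48%. Without overlap, 0 presynaptic genes were higher and 3 lower (1.16% and 2.05% of all tested genes). The mean level of the presynaptic list after injection was -0.03. This list includes Slc17a6, which was picked by p and non-overlap, so these counts are no independent support. Among the presynaptic exceptions was Rims3, an active zone protein, at 14.4 to 16.2 CPM in sham and 9.84 to 13.5 CPM after injection, without overlap (-0.43 on the log2 scale, SE 0.10; edgeR adjusted p = 0.475). Neuropeptide genes were lower in 16 of 19 members (median -0.11). The peptide gene Adcyap1, which encodes PACAP, was at 5.83 to 7.57 CPM in sham and 1.68 to 5.38 CPM after injection, without overlap (-0.83, SE 0.25; edgeR adjusted p = 0.712). Crh, the corticotropin-releasing hormone gene, was at 1.88 to 2.77 CPM against 1.27 to 1.90 CPM (-0.58, SE 0.19; edgeR adjusted p = 0.712), with doxorubicin replicate 1 just inside the sham range. Of 24 neurogenesis and immature neuron genes 18 were lower (median -0.13, or -0.06 without doxorubicin replicate 3), among them Stmn1, a tubulin-binding protein of growing neurons (68.3 to 74.0 CPM against 47.0 to 69.2 CPM; -0.30, SE 0.10; edgeR adjusted p = 0.712).

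**Figure D4:**
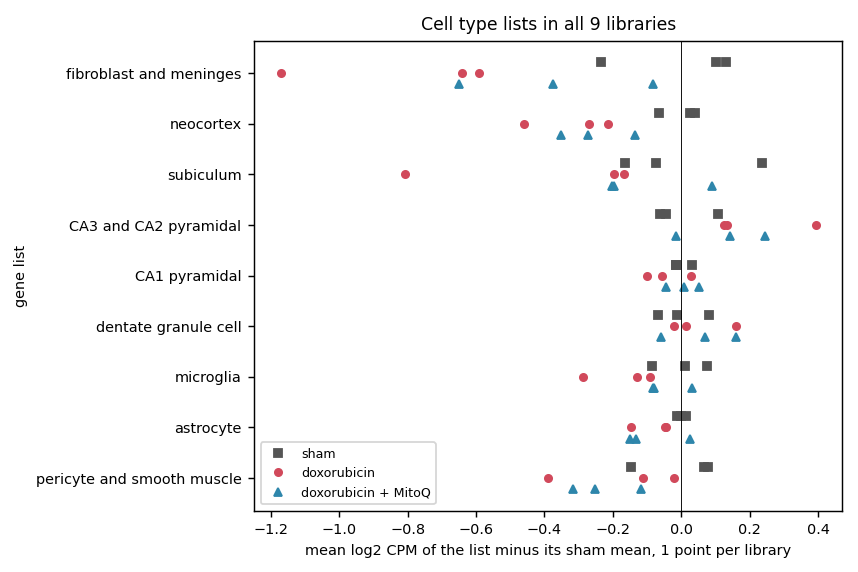
Mean log2 CPM of 9 cell type lists in each library, relative to the mean of the 3 sham libraries. The neocortex list, which includes genes picked for non-overlap, is the one with all 6 injected libraries below all 3 sham libraries. In the fibroblast and meninges list 1 injected library, at -0.08, lies inside the sham range of -0.23 to 0.13.

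Over both injected groups together, markers of microglia, astrocytes, endothelium, mural cells and macrophages were mostly lower in sign, and those of mature oligodendrocytes mostly higher. Microglial markers were lower in 23 of 26 members, with a median of -0.10, which was -0.16 with doxorubicin alone and -0.03 with MitoQ, and -0.06 for both together without sham replicate 1. C1qb, a chain of complement C1q made by microglia, was at 42.2 to 44.6 CPM in sham and 37.1 to 41.7 CPM after injection, without overlap (-0.14 on the log2 scale, SE 0.05; edgeR adjusted p = 0.714). Aif1, which encodes the microglial protein IBA1, was at -0.09 (SE 0.15; edgeR adjusted p = 0.951), and at -0.0073 without doxorubicin replicate 3. Astrocyte markers were lower in 16 of 18 members (median -0.08). Reactive astrocyte genes were lower in 20 of 27 (median -0.19, or -0.11 without sham replicate 1), with C4b, complement component 4, the other way at 44.1 to 52.2 CPM in sham and 49.4 to 72.8 CPM after injection (0.35, SE 0.10; edgeR adjusted p = 0.712). The intermediate filament gene Gfap was at 438 to 486 CPM in sham, 350 to 419 CPM with doxorubicin alone and 463 to 513 CPM with MitoQ. The doxorubicin group lay below sham and the MitoQ group overlapped it; between the injected groups the log2 difference was 0.32 (SE 0.07; unadjusted p = 0.00137, adjusted p = 0.968, edgeR). The average of both against sham was -0.10 (SE 0.06; edgeR adjusted p = 0.842), and -0.06 without doxorubicin replicate 3. Of 22 myelin and oligodendrocyte markers 17 were above sham in sign. Their median of 0.03 lay between -0.05 and 0.08 when a library was left out. With doxorubicin alone 10 of these markers were higher and 12 lower (median -0.03), and with MitoQ 19 and 3 (median 0.10). Myrf, the factor that drives myelin genes, was at 65.7 to 88.0 CPM in sham and 78.3 to 94.4 CPM after injection (0.19, SE 0.09; edgeR adjusted p = 0.775), or 0.08 without sham replicate 3.

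Endothelial markers were lower in 20 of 24 members (median -0.13, or -0.08 without sham replicate 3) and pericyte and smooth muscle markers in 15 of 17 (median -0.18), the latter -0.09 without doxorubicin replicate 3. Tagln, the smooth muscle actin-binding protein transgelin, was at 3.94 to 4.89 CPM in sham and 1.93 to 3.69 CPM after injection (-0.74 on the log2 scale, SE 0.19; edgeR adjusted p = 0.59). Vtn, the pericyte-made matrix protein vitronectin, was at 66.3 to 78.1 CPM against 49.1 to 66.3 CPM (-0.32, SE 0.09; edgeR adjusted p = 0.652). Perivascular macrophage and leukocyte markers were lower in 12 of 12 tested members, with a median of -0.36 that ranged from -0.69 without doxorubicin replicate 1 to -0.20 without sham replicate 2. The other 10 markers of that list, among them those of T cells, B cells and neutrophils, were below the count filter. Mrc1, the macrophage mannose receptor, was at 2.72 to 3.83 CPM in sham and 1.34 to 3.07 CPM after injection (-0.61, SE 0.24; edgeR adjusted p = 0.734). Of 20 cytokine, adhesion and NF-kB genes 17 were lower, with a median of -0.07. It turned to 0.01 when sham replicate 2 was left out, and was -0.19 when sham replicate 3 was. Icam1, an adhesion receptor for leukocytes, was at 3.13, 9.39 and 2.20 CPM in sham, 2.25, 1.39 and 1.49 CPM with doxorubicin and 2.32, 2.06 and 2.08 CPM with MitoQ (-1.38, SE 0.38; edgeR adjusted p = 0.693), and sham replicate 2 was far above the rest. Without it the log2 fold change was -0.48. Casp1, the inflammasome protease, was at 1.48 to 2.31 CPM against 0.816 to 1.40 CPM without overlap (-0.74, SE 0.21; edgeR adjusted p = 0.712).

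Choroid plexus and ependymal lists had positive medians that rested on which libraries held these tissues. All 20 choroid plexus markers were higher in sign (median 0.41), but leaving out sham replicate 2 gave a median of 3.34 and leaving out sham replicate 3 gave -0.05. Ttr, transthyretin of the choroid plexus, was at 42.2, 4633 and 55.3 CPM in sham, 3777, 35.8 and 1975 CPM with doxorubicin and 3245, 1213 and 4870 CPM with MitoQ (0.63 on the log2 scale, SE 1.41; edgeR adjusted p = 0.96). Of the ependymal markers 15 of 19 were higher (median 0.11, or 0.49 without sham replicate 2 and -0.10 without sham replicate 3). With doxorubicin alone 8 of them were higher and 11 lower (median -0.07), and with MitoQ 18 and 1 (median 0.29). Over all lists, 31 of 50 had a median below 0 and 19 above, 10 lay at -0.1 or lower and 6 at 0.1 or higher. Leaving out a single library turned the sign of the median in 22 of the 50 lists, and turned it or moved the median by more than 1.5-fold in 44. The median over the tested members says how a list leans in these libraries and is not a test.

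**Figure D5:**
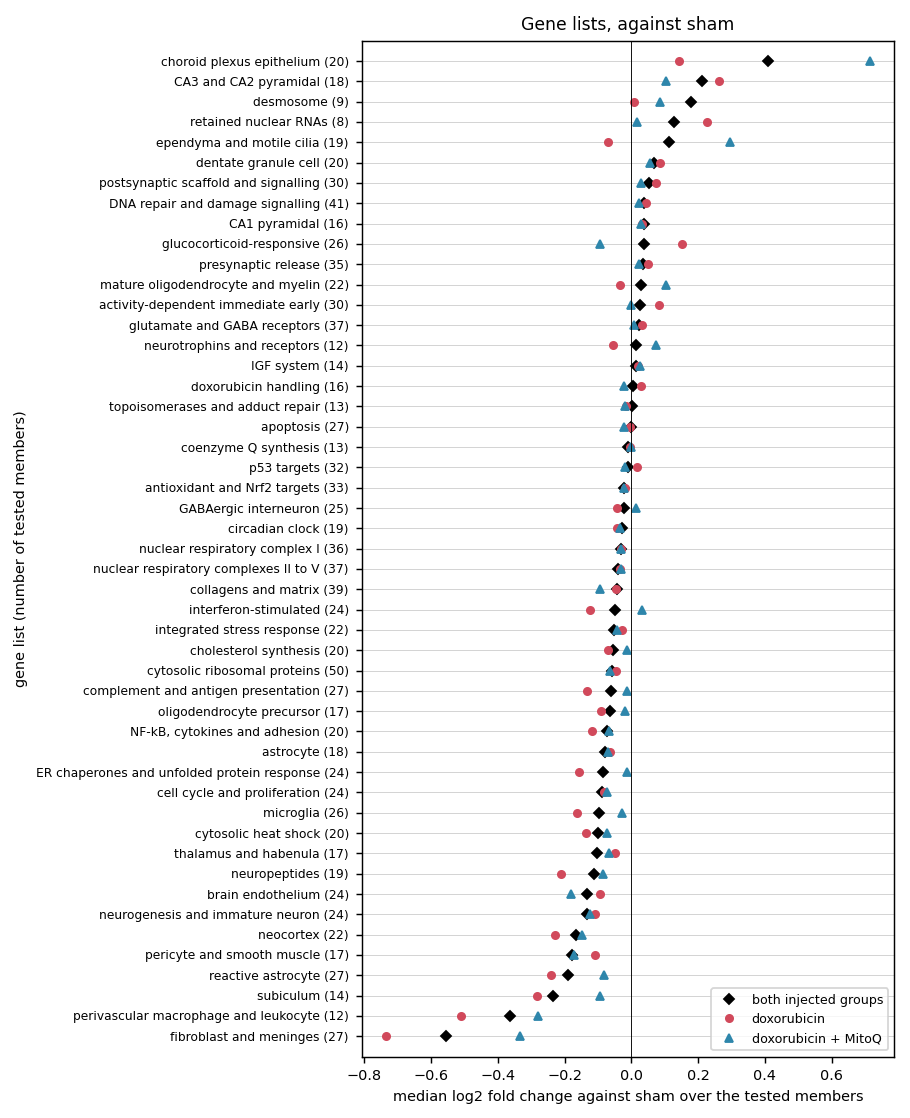
Median log2 fold change against sham over the tested members of each list (number in brackets), for both injected groups together (diamonds), doxorubicin alone (circles) and doxorubicin plus MitoQ (triangles). The ribosomal RNA list was left out of the plot, with medians of 0.17, -1.58 and 1.89 in the same order. Fibroblast and meninges markers (-0.56) are the lowest and choroid plexus markers (0.41) the highest.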

How the data were processed

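Polyadenylated RNA was measured in 9 libraries, 3 per labelled group. Trizol and Zymo spin columns were used for RNA and an Illumina TruSeq kit for libraries, per the labels' protocols. The values deposited are raw counts of reads per gene. The submitters' processing notes name STAR, DESeq2 and mm10, and no version, counting program, strand setting or annotation was found there. Of 24421 entries, 27 have a date for a name (0.309% to 0.322% of counts) and were left out, and 0 columns belong to no sample. This left 24394 genes, 4618 of them without a count.

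The edgeR filter filterByExpr (minimum count 10) kept 15296 genes. After TMM scaling, edgeR 4.0.16 in R 4.3.3 fitted 1 quasi-likelihood model to the 3 groups (common biological coefficient of variation 11.4%), and the contrast was the mean of both injected groups minus sham. Calls were made at an adjusted p under 0.05 (Benjamini-Hochberg). SE is the absolute log2 fold change over the square root of F. The fit was tested on simulated data. Named are the 12 genes of smallest p per direction (mean of 1 CPM or more, injected and sham libraries not overlapping), 10 reference genes and the 3 smallest p of each list; some are not reported here. The 50 lists hold 1131 genes and share members; 1126 were found, 4 of them under older symbols. Members and lists were chosen with earlier results of these data known. A list level averages log2 CPM (prior count 1) over its tested members. Of 166 genes picked, 162 matched a single GENCODE M21 gene and 43 have an exon overlapping another gene. Same-numbered libraries did not deviate together (correlations -0.499 to 0.358), and no libraries were duplicates. Alternatives were DESeq2 1.42.0, limma-voom (limma 3.58.1), DESeq2 size factors, other filters and thresholds, a choroid plexus covariate, a replicate block, a fit of 6 against 3 libraries, only the groups compared, and leaving out each library. Plots used matplotlib 3.10.9 and Python 3.11.15.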

Additional observations from a re-analysis of the deposited data

Results flagged for a closer look

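Among the 6 injected libraries, 1 library stood apart from the other 5 in 17 of 157 genes and 6 of 50 list levels, where its gap to the nearest library took more of the range than Dixon's critical value for 6 values. Chance flags about 1 in 20 groups. Of these 23 values, 15 were in doxorubicin replicate 3. In it the lipid droplet gene Plin4 was at 54.8 CPM against 1.98 to 4.87 CPM in the other 5, and the p53 target Cdkn1a at 29.1 CPM against 6.85 to 10.7 CPM. The glucocorticoid-responsive list, to which Plin4 belongs, was at 0.827 on the log2 scale against -0.337 to 0.00156. Also above the others in that library were Rgs14 (165 CPM), Hapln2 (39.2 CPM), Parp1 (158 CPM), Coq10a (29.7 CPM), Adck3 (73.7 CPM) and Dsp (140 CPM). Below the others were Fcrls (13.2 CPM), Tubb3 (206 CPM) and Bcl2 (12.2 CPM), and the lists of the subiculum (-0.807), GABAergic interneurons (-0.214) and glutamate and GABA receptors (-0.172).

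In doxorubicin replicate 2 the choroid plexus list was at -1.68 against 1.24 to 2.88 in the other 5, and the apoptosis list at -0.0416 against -0.00181 to 0.0143. In MitoQ replicate 2, Vip (16.3 CPM) and Uqcrh (132 CPM) were above the other injected libraries, and Cd109 (5.26 CPM) and Ly6c1 (13.6 CPM) below them. In MitoQ replicate 1 the nuclear RNA Malat1 was at 486 CPM against 277 to 349 CPM, and in MitoQ replicate 3 the macrophage scavenger receptor Cd163 was at 0.316 CPM against 0.785 to 1.06 CPM.

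The level of the ribosomal RNA-linked list was below every sham library in all 3 doxorubicin libraries (mean -1.63) and above every sham library in all 3 MitoQ libraries (mean 1.60), a difference of 3.22 on the log2 scale. That difference between the groups was not tested for the list.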

How the results depend on the processing

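The main contrast called 0 genes, and also with DESeq2 size factors, a filter of 1 CPM in 3 libraries, limma-voom, a 1.5-fold minimum, the choroid plexus covariate and each library left out. DESeq2 called 36; no filter gave 2 (Cplx3, Dsc3), an adjusted p under 0.1 gave 2 and the fit of 6 against 3 gave 1 (Cplx3). For doxorubicin alone against sham, DESeq2 called 44, no filter 1, an adjusted p under 0.1 1, and leaving out a library 0 to 1 (Dsc3, without MitoQ replicate 2). For MitoQ against sham, DESeq2 called 2 and leaving out a library 0 to 3 (Lars2, Mir6236 and Rn45s, higher, without MitoQ replicate 2). For MitoQ against doxorubicin alone, DESeq2 called 5, no filter 2 (Mir6236, Rn45s) and leaving out a library 0 to 3 (without MitoQ replicate 2, the same 3 names). The cause was not tested.

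With the replicate block, 1 gene was called in the main contrast (Slc17a6, log2 fold change -0.91, edgeR adjusted p = 0.0334), 2 with doxorubicin alone against sham, and 0 in the other comparisons. The labels do not say that the numbers pair the libraries.

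None of the leading genes named above turned sign under any alternative run. Near 0, Cdkn1a was at -0.083 with the choroid plexus covariate and ranged from -0.27 to 0.29 when a library was left out. Mdm2 ranged from -0.10 to 0.0723 and Top2b from -0.048 to 0.0299 when a library was left out, Top2b was at -0.0106 with the covariate, and Plin4 ranged from -0.24 (without doxorubicin replicate 3) to 1.72. The cause was not tested. Over named genes, 2633 of the values recomputed kept direction and side of the threshold, 20 passed it and 14 reversed. Precision is limited by 3 sham libraries and by genes near 1 CPM.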

Other observations

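Several groups of genes outside the comparisons above gave values that a reader of these libraries may want to look at again. Malat1 and Neat1, RNAs retained in the nucleus, were both above sham. Malat1 was at 165 to 270 CPM in sham and 277 to 486 CPM after injection, without overlap (log2 fold change 0.55, SE 0.18; edgeR adjusted p = 0.712; 0.35 without sham replicate 2). Neat1 was at 74.9 to 101 CPM against 94.4 to 130 CPM (0.32, SE 0.11; edgeR adjusted p = 0.712; 0.19 without sham replicate 3). Their list of 8 tested RNAs had a median of 0.13, which was -0.05 without sham replicate 2.

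Serping1, the C1 inhibitor, was at 7.24 to 10.1 CPM in sham and 5.31 to 7.57 CPM after injection (-0.42, SE 0.12; edgeR adjusted p = 0.712), with MitoQ replicate 1 inside the sham range. Nupr1, a stress-induced nuclear protein, was at 4.11 to 4.78 CPM against 2.69 to 3.72 CPM without overlap (-0.51, SE 0.14; edgeR adjusted p = 0.709). The immediate early gene Ier5 was at 53.6 to 66.6 CPM against 41.1 to 51.7 CPM, also without overlap (-0.34, SE 0.09; edgeR adjusted p = 0.709), while 17 of 30 activity-dependent genes were higher in sign (median 0.02, between -0.08 and 0.18 when a library was left out).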
